A study of Mus musculus with 2 samples.

Results

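The 10 genes described here belong to the BCL2 family: 4 survival members (Bcl2, Bcl2l1, Bcl2l2 and Mcl1) and 6 death members (Bax, Bak1, Bid, Bcl2l11, Bbc3 and Pmaip1). They were chosen by name, and all 10 were found among the 19073 features of both matrices. They were measured in liver cells of male p16-Tom mice, in which a heterozygous p16-CreERT2 allele and the R26-CAG-LSL-tdTomato-WPRE reporter mark cells that transcribe p16Ink4a when tamoxifen is given. Both groups received carbon tetrachloride (CCl4), a liver toxin, for 4 weeks together with tamoxifen. The liver was fixed before it was dissociated, and Hoechst+ and MitoBrilliant 646+ cells were sorted into 1 reporter-negative library (Tom-, p16 low) and 1 reporter-positive library (Tom+, p16 high). The sources used here do not give the age or the number of mice behind each library. The reporter records past p16 transcription in any cell type of these mice and was not restricted to hepatocytes by its promoter.

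BCL2 family proteins decide whether the outer mitochondrial membrane is opened during apoptosis. BAX and BAK, the effectors encoded by Bax and Bak1, form the openings through which cytochrome c leaves. BCL2, BCL-XL (Bcl2l1), BCL-W (Bcl2l2) and MCL1 hold the effectors and their activators in check. The BH3-only proteins BIM (Bcl2l11), BID, PUMA (Bbc3) and NOXA (Pmaip1) carry death signals to both. In hepatocytes BCL-XL and MCL1 are the best known guards, and death receptor signals depend largely on BID to reach the mitochondria. CCl4 is turned into its toxic form by CYP2E1, an enzyme of hepatocytes around the central vein.

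After filtering and clustering, 10909 Tom- and 9979 Tom+ hepatocytes were compared, with medians of 32310 and 35325 unique molecular identifiers (UMIs) per cell. Each was placed between the portal vein and the central vein by a score of portal and central marker genes that contains no member, and the pooled cells were divided into 5 bins of equal size from portal (bin 1) to central (bin 5). Of the 20888 cells, 2046 lay within 0.05 of a cut on the score. The libraries filled these bins differently: 3020 Tom- and 1158 Tom+ cells fell in bin 1, and 1151 Tom- and 3027 Tom+ cells in bin 5. Between bin 1 and bin 5 the median depth went from 33369 to 28820 UMIs in Tom- cells and from 39476.5 to 33237 in Tom+ cells, and Glul, the central glutamine synthetase gene and one of the score's genes, went from 6.09 to 278 and from 10.9 to 373 UMIs per 1000000 UMIs of the class (CPM). The hepatocyte gene Alb was at 118059 CPM in Tom- and 108058 CPM in Tom+ cells. The reporter itself was at 72.8 CPM in Tom- and 813 CPM in Tom+ hepatocytes. The libraries shared 503 barcodes. With 1 library per group no test of a condition was possible, so every difference below is between these libraries or between classes of cells within them, and each interval is a 95% interval that covers counting error only. Probe-based counts of different genes are not on 1 scale, so levels were compared between classes for the same gene. Summaries that set members against each other were read only as differences between classes.

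Bcl2l11, which encodes the BH3-only killer BIM, showed the steepest gradient of the family along the lobule. In Tom- hepatocytes its level went from 6.11 CPM in bin 1 through 8.87, 16.6 and 27.2 CPM to 39.4 CPM in bin 5. In Tom+ hepatocytes the same bins held 5.05, 7.44, 16.5, 26.7 and 41.7 CPM. Every step was upward in both libraries, and the portal and central intervals did not overlap. Summed markers of stellate cells were also higher centrally, going from 32.1 to 70.8 CPM in Tom- and from 27.6 to 59.6 CPM in Tom+ cells between bins 1 and 5. In Tom+ cells they were highest in bin 4 (62.6 CPM). Bcl2l11 was higher in the hepatocytes richer in markers of other cell types (log2 0.38 and 0.25), a split that was not matched for position. Between the same bins the macrophage markers went from 185 to 243 CPM in Tom- and from 133 to 185 CPM in Tom+ cells, with their highest levels in bin 4 (288 and 239 CPM). Those of other leukocytes went from 51.1 to 75.6 CPM and from 54.1 to 73.8 CPM. Endothelial markers were lower centrally, going from 74.7 to 72.1 CPM and from 59.9 to 54.2 CPM. The median mitochondrial share of UMIs was 1.22% in bin 1 and 1.47% in bin 5 of Tom- cells, and 1.37% and 1.65% in Tom+ cells. The part of these in the gradient was not tested beyond the next comparison. Among the hepatocytes poorer in those markers its central over portal ratio was 2.59 (2.39 to 2.78) and 3.06 (2.85 to 3.29) on the log2 scale. The central over portal ratio was 6.45-fold in Tom- cells (log2 2.69, 2.56 to 2.82) and 8.27-fold in Tom+ cells (log2 3.05, 2.86 to 3.23). The ratio was steeper in the Tom+ library by 0.36 on the log2 scale (0.13 to 0.58), and the libraries differed more at the portal end (log2 -0.28, Tom+ over Tom-) than at the central end (0.08). With each cell thinned to 5000 UMIs, a Bcl2l11 UMI was found in 2.59% of portal (2.05% to 3.22%) and 15.6% of central Tom- cells (13.5% to 17.8%), and in 2.08% (1.34% to 3.08%) and 18.8% (17.4% to 20.3%) of Tom+ cells. Without thinning these shares were 19.1% and 59.4% in Tom- cells and 18.8% and 64.5% in Tom+ cells. No class of cells here is known to lack Bcl2l11, so a background share of cells with a UMI was not measured. The gradient was present at both depths: in Tom- cells of 30000 UMIs or more, Bcl2l11 was at 5.81 CPM in bin 1 and 36.6 CPM in bin 5, and in shallower cells at 7.04 and 44.6 CPM.

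Bcl2l11 lies on chromosome 2 (mm10, chr2:128126038-128162547, plus strand). The 250 bases before 1 of its RefSeq starts (GRCm38.p6, chr2:128125788-128126037, plus strand) are shown because its transcript carries the strongest positional signal of the family. They stand beside the bases before the start of Mcl1 (chr3:95658471-95658720, plus strand), a survival member that was also higher centrally. A Bbc3 start (chr7:16310011-16310260, plus strand) is added because it holds the same motif. Capitals mark GTAAACA, a FOXO-type motif, or its reverse complement TGTTTAC.
Bcl2l11: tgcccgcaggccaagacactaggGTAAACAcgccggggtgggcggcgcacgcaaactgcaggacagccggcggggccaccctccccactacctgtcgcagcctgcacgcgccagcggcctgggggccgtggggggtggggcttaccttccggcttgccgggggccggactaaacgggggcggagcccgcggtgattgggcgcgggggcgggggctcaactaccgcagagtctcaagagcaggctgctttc
Mcl1: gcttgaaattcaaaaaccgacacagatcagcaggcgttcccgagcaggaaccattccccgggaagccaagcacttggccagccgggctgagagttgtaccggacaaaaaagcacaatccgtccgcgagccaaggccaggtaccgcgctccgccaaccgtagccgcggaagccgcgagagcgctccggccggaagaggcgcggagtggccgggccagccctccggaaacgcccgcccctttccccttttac
Bbc3: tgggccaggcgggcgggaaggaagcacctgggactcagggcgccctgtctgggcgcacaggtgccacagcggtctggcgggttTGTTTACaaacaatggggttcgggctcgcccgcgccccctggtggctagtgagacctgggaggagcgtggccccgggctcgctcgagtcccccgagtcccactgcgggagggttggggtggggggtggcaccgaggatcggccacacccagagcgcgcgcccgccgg
On either strand this motif was found in the 250 bases before a start of 3.54% of 27025 RefSeq genes, and for 2 of the 9 members with a window, Bcl2l11 and Bbc3. By start, it was before 3.17% of 32851 starts and 2 of the 14 of members. CTTTGAT, a TCF/LEF-type motif whose reverse complement is ATCAAAG, was found before a start of 3.72% of the genes and in none of these 9 members. The windows of the other listed starts of Bcl2l11 and Bbc3 held neither motif. Bcl2l11 and Bbc3 are known FOXO target genes, while Bbc3, Bax and Pmaip1 are known p53 target genes. A match of letters is a description of the window and not of binding.

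Among the survival members, Mcl1 (chr3:95658788-95663176, plus strand), a short-lived guard that binds BIM, NOXA and BAK, also had a central gradient. Its level was 106, 115, 140 and 169.9 CPM in Tom- bins 1 to 4 and 216 CPM in bin 5. In the Tom+ bins it was 103, 110.2, 138, 168 and 214 CPM. The central over portal ratio was 2.05-fold (log2 1.04, 0.99 to 1.08) and 2.07-fold (log2 1.05, 1.01 to 1.09), and the libraries differed in this ratio by only 0.01 (-0.05 to 0.07). Bcl2l1 (chr2:152780668-152831728, minus strand), which encodes BCL-XL, stayed between 84.1 and 93.2 CPM in the first 3 Tom- bins, then stood at 104 and 132 CPM. In the Tom+ bins it was 86.9, 89.4, 101, 116 and 150.3 CPM. Its central over portal ratio was 1.57-fold in Tom- cells (log2 0.65, 0.60 to 0.70) and 1.73-fold in Tom+ cells (log2 0.79, 0.74 to 0.84). Bcl2l2, which encodes BCL-W, was nearly level, between 83.1 and 92.1 CPM over all bins and both libraries, with central over portal ratios of 0.12 and 0.11 on the log2 scale. The median over all genes compared was itself 0.16 in Tom- and 0.21 in Tom+ cells. Against that shift Bcl2l2 was slightly lower centrally, by -0.03 and -0.10. Bcl2, the founding member, was near 1 CPM in every bin (0.98 to 1.26 CPM in Tom- and 0.72 to 1.23 CPM in Tom+ cells) and was too low for a ratio.

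Both effectors were higher centrally, by less than Mcl1. Bax (chr7:45461697-45466898, minus strand) was at 93.2 CPM in the portal and 131 CPM in the central bin of Tom- cells (log2 0.49, 0.44 to 0.54), and at 82.4 and 126 CPM in Tom+ cells (log2 0.61, 0.56 to 0.66). Bak1 was at 8.82 and 12.6 CPM (log2 0.52, 0.36 to 0.68), and at 9.88 and 13.0 CPM (log2 0.39, 0.25 to 0.54). Of the other BH3-only members, Bbc3 (chr7:16308393-16318205, plus strand) was higher centrally by 0.57 (0.47 to 0.67) and 0.58 (0.49 to 0.68). Bid was the member with the opposite sign, from 14.0 to 12.7 CPM in Tom- cells (log2 -0.14, -0.29 to 0.01) and from 14.8 to 13.2 CPM in Tom+ cells (log2 -0.16, -0.29 to -0.04). Pmaip1 held 37 and 25 UMIs in the portal and central Tom- bins and 14 and 52 in the Tom+ bins, all under 1 CPM. Its central over portal ratios, 1.02 (0.23 to 1.79) and 0.70 (-0.17 to 1.67) on the log2 scale, rest on these few UMIs.

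In Tom- cells 3 of the 8 members that passed the filter of 10 CPM in either bin were past 1.5-fold higher centrally (Bcl2l1, Mcl1 and Bcl2l11), against 10.1% of all 7984 genes compared. In Tom+ cells 4 of 8 were (Bax in addition), against 11.4% of 8055 genes, and no member was past 1.5-fold lower in either library. Bcl2l11 and Bak1 were under 10 CPM in the portal bin and passed the filter through the central bin alone, so these counts only describe the members and nothing is read from them. Nearest to the threshold, Bcl2l1 (1.57-fold) lay inside and Bbc3 (1.48-fold) outside it in Tom- cells, and in Tom+ cells Bax (1.53-fold) lay inside and Bbc3 (log2 0.58) just outside. Scaled to the median of all genes instead, Mcl1 and Bcl2l11 were past 1.5-fold in each library, and Bcl2l1 was not (log2 0.49 and 0.58). The shares of all genes above belong to the unscaled comparison, so nothing is read from this either.

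**Figure D1:**
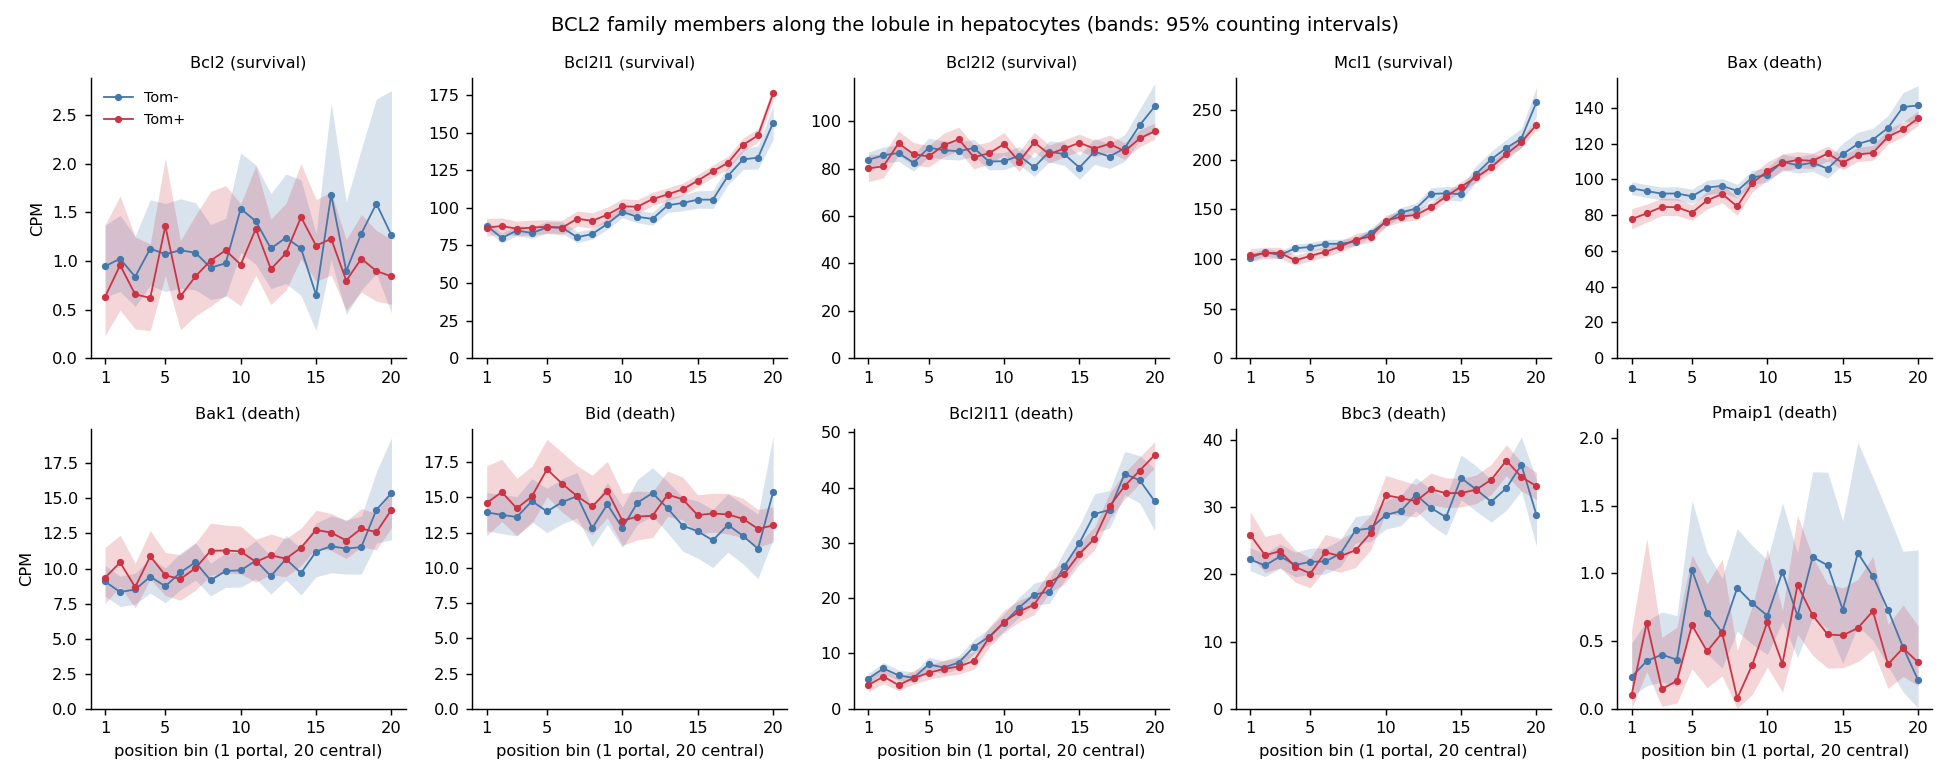
Level (CPM, linear axes from 0) of each of the 10 members in hepatocytes sorted into 20 position bins from portal (1) to central (20), for the Tom- (blue) and Tom+ (red) libraries, with bands for 95% counting intervals. Bcl2l11 goes from 5.47 and 4.31 CPM in the first bin to 37.5 and 45.9 CPM in the last, Mcl1 and Bcl2l1 are also highest at the central end, Bcl2l2 and Bid are nearly level, and Bcl2 and Pmaip1 stay at 1.68 CPM or below.

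Whether survival or death members weigh more centrally depended on which members were set against each other. The balance was taken as the mean log2 level of the 4 survival members minus that of the 6 death members. Only its differences between classes can be read, since the efficiency of each probe cancels there. From bin 1 to bin 5 the balance went from 1.71 to 1.38 in Tom- cells, a difference of -0.33 (-0.51 to -0.14). In Tom+ cells it went from 1.67 to 1.37, a difference of -0.30 (-0.50 to -0.09). Both libraries thus had a balance lower towards the death members centrally, by amounts that overlapped. The estimate of the balance also differed between depths. In Tom- cells under 30000 UMIs it was 1.94 in bin 1 and 1.71 in bin 5, and in deeper cells 1.63 and 1.22. In Tom+ cells these were 1.72 and 1.41, and 1.67 and 1.36. By these estimates it was lower centrally at both depths, but shallow central Tom- cells lay above deep portal ones. No intervals were computed for them, and those of cells under 30000 UMIs rest on few Pmaip1 UMIs. These were 7 and 5 in Tom- bins 1 and 5, and 1 and 15 in the same Tom+ bins, so neither order is settled. The lower central balance rested on Bcl2l11: without it the differences were 0.04 (-0.16 to 0.24) and 0.14 (-0.08 to 0.36). Without Mcl1 they were larger, -0.49 and -0.46, and without Bcl2 and Pmaip1 they were -0.22 and -0.24. Set as Bcl2l1 and Mcl1 against Bax and Bak1, the central bin was higher towards survival, by 0.34 and 0.42. The log2 of summed UMIs of survival over death members, which the abundant members fill, differed by 0.02 and -0.03. Probe efficiency does not cancel in such a sum, even between classes.

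Single pairs with Mcl1 showed the same split. The Mcl1 over Bcl2l11 ratio was lower centrally by -1.65 on the log2 scale in Tom- cells (-1.79 to -1.51) and by -2.00 in Tom+ cells (-2.19 to -1.81). Mcl1 over Bid, in contrast, was higher centrally by 1.17 (1.02 to 1.33) and 1.21 (1.08 to 1.35). For Mcl1 over Bax the differences were 0.54 (0.48 to 0.61) and 0.44 (0.37 to 0.51), for Mcl1 over Bak1 0.52 and 0.66, and for Mcl1 over Bbc3 0.47 in both. Relative to each effector, Bid and Bbc3, Mcl1 was thus higher at the central end, and relative to Bcl2l11 it was lower. Mcl1 over Pmaip1 differed by 0.02 (-0.72 to 0.75) and 0.35 (-0.51 to 1.199), which the few Pmaip1 UMIs could not resolve.

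**Figure D2:**
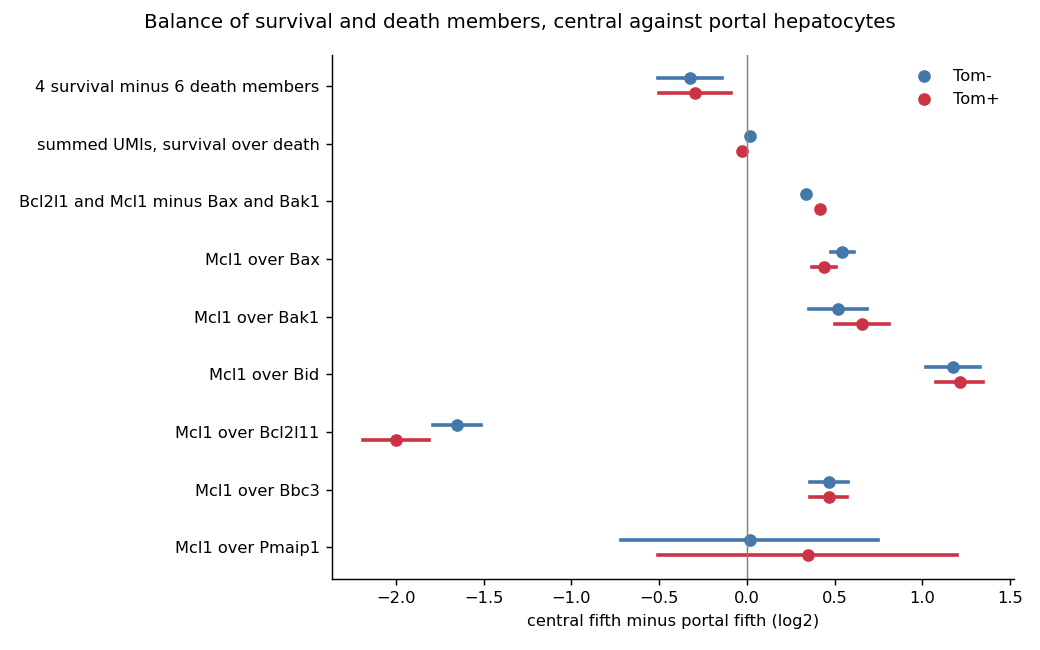
Central bin minus portal bin (log2, horizontal axis) of the balance of all members, of 2 other summaries and of Mcl1 over each death member, in Tom- (blue) and Tom+ (red) hepatocytes; lines are 95% counting intervals, drawn where computed. Mcl1 over Bcl2l11 lies at -1.65 and -2.00, while Mcl1 over Bax, Bak1, Bid and Bbc3 lies between 0.44 and 1.21.

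Tom+ and Tom- hepatocytes were then compared, first as a whole and then within the position bins, because the Tom+ library held more central cells. Over all hepatocytes Bcl2l11 was at 15.4 CPM in Tom- and 23.7 CPM in Tom+ cells, a log2 ratio of 0.62 (0.58 to 0.67) and the 1 member of 8 past 1.5-fold, against 1.94% of all 7831 genes compared in either direction. Without the hepatocyte clusters made up almost wholly of Tom+ cells the ratio was 0.54 (0.49 to 0.59), just under 1.5-fold, and no member was past it. Within the 5 position bins its ratio was -0.28 (-0.49 to -0.07), -0.26 (-0.43 to -0.09), -0.01, -0.03 and 0.08, so the pooled difference was not seen within bins, and in the 2 most portal bins the sign was opposite. Averaged over 20 narrower bins it was -0.11, against -0.10 over the 5 bins. Mcl1 behaved alike: 136 and 159.6 CPM over all hepatocytes (log2 0.24, 0.22 to 0.25), but -0.06 to -0.01 within the bins. In the central bin no member was past 1.5-fold (0 of 8), against 0.464% of 7975 genes.

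Smaller differences remained within the bins for some members. The bins may not have made position fully equal. Glul, one of the score's genes, was higher in Tom+ cells in each bin, from 10.9 against 6.09 CPM in bin 1 to 373 against 278 CPM in bin 5. Cyp2e1 was higher in Tom+ cells in bin 1 (260 against 186 CPM) but not in bin 4 (2679 against 2749 CPM). The portal genes Sds and Cyp2f2 of the score were also higher in Tom+ cells in bins 1 and 2. Cyp2f2 was at 532 against 413 CPM in bin 1, and Sds at 2219 against 1875 CPM in bin 2. In bins 3 to 5 both were lower in Tom+ cells. At the portal end these genes thus gave no single direction of a shift in position. The part of such a shift in these differences was not tested. Bcl2l1 was higher in Tom+ cells in 5 of 5 bins, with intervals off 0 in 4 of them. The ratio was 0.05 (-0.01 to 0.10) in bin 1 and 0.09, 0.12, 0.17 and 0.19 towards bin 5, and 0.31 (0.29 to 0.33) over all hepatocytes. Its level moved with depth: in portal Tom- cells it was 107 CPM in cells under 30000 UMIs and 76.7 CPM in deeper ones. In portal Tom+ cells these were 101 and 84.5 CPM. In the shallower portal cells the intervals of the libraries overlapped (103 to 111 CPM in Tom- and 93.9 to 109 CPM in Tom+). In the central bin Bcl2l1 was higher in Tom+ cells at both depths, at 171 against 157 CPM in shallower and 144 against 119 CPM in deeper cells. With every cell thinned to 5000 UMIs its mean over the bins was 0.04 (-0.01 to 0.10), against 0.12, so its size moved with how cells of unequal depth were weighted. Bak1 was higher in Tom+ cells in 5 of 5 bins (0.04 to 0.16) and its intervals stayed above 0 in 3 of them. Bax was lower in Tom+ cells at the portal end, by -0.18 (-0.23 to -0.13) in bin 1 and -0.12 (-0.17 to -0.07) in bin 2, and between -0.06 and 0.02 in the other bins. With thinning the mean over the bins was 0.11 for Bak1 (-0.07 to 0.29), as without it, and -0.03 for Bax (-0.09 to 0.03), against -0.07. Bid was between -0.03 and 0.15, Bbc3 between -0.07 and 0.09, and Bcl2l2 at most 0.08 from 0 in any bin. Bcl2 was at 1.11 and 1.00 CPM over all hepatocytes (log2 -0.15, -0.35 to 0.05).

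Pmaip1 was lower in Tom+ cells in 5 of 5 bins, by estimates that ranged from -0.88 to -0.27, at levels of 1.02 CPM or less. The interval lay off 0 in 2 of these bins. Over all hepatocytes it was at 0.69 and 0.49 CPM (log2 -0.50, -0.77 to -0.23). Thinned to 5000 UMIs a cell, that ratio was -0.18 (-1.002 to 0.63), with too few UMIs left to tell its sign. Macrophage marker genes moved with it: 6 of 10 were at 5 CPM or more in the hepatocytes of both libraries, and the summed level of the list was 231 CPM in Tom- and 198 CPM in Tom+ hepatocytes. Across the position bins that sum ranged from 185 to 288 CPM in Tom- and from 133 to 239 CPM in Tom+ cells. The part of macrophage RNA in the Pmaip1 difference was not tested. The balance of all members was 1.40 in Tom- and 1.41 in Tom+ hepatocytes (difference 0.00 after rounding, -0.07 to 0.07), and within the bins it differed by -0.04 to 0.17. The largest differences were 0.17 in bin 2 (-0.003 to 0.33) and 0.15 in bin 4 (0.002 to 0.29). Without Bcl2 and Pmaip1 they were 0.05 and 0.004.

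**Figure D3:**
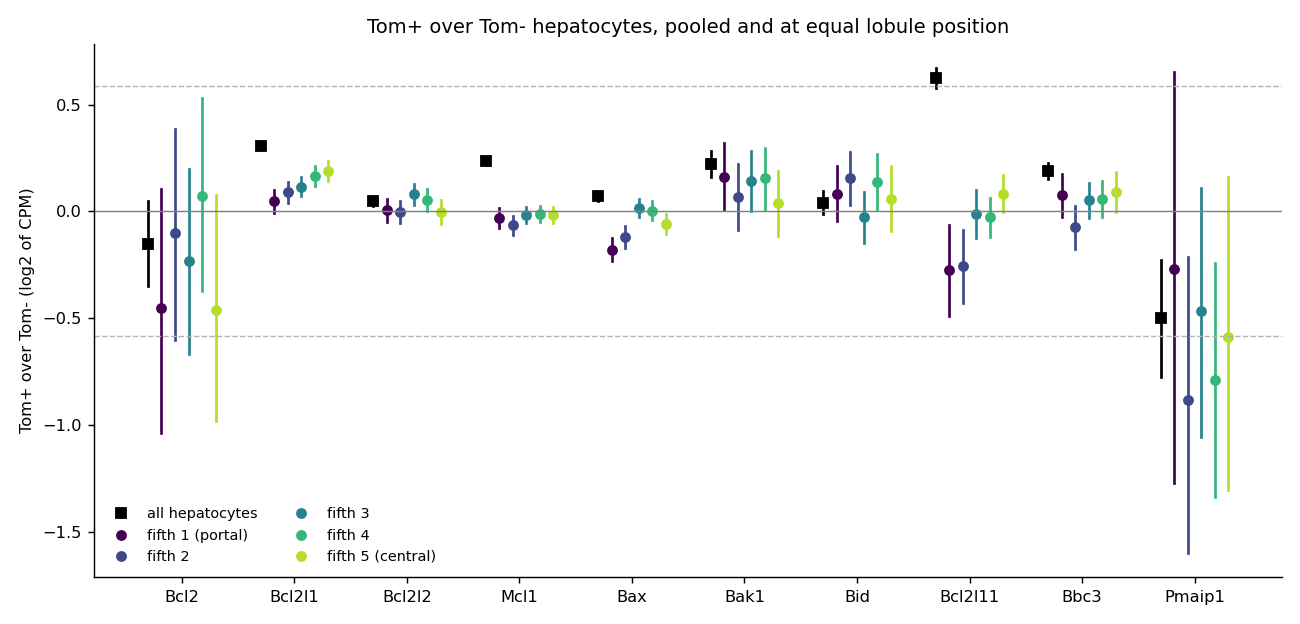
Log2 ratio of Tom+ over Tom- CPM (vertical axis) for each member over all hepatocytes (black squares) and within each of the 5 position bins (circles, dark for portal to light for central), with 95% counting intervals; dashed lines mark 1.5-fold. For Bcl2l11, Mcl1, Bcl2l1, Bax, Bak1 and Bbc3 the square lies above all 5 circles, most of all for Bcl2l11 (0.62 against -0.28 to 0.08).

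Clusters were built with all members left out. Over both libraries pooled, the 12 hepatocyte clusters spanned 9.04-fold in Bcl2l11, from 5.47 CPM in cluster 10 to 49.5 CPM in cluster 6, a zone 3-like (central) cluster led by Glul, Lgr5 and Axin2. In Tom- cells alone the lowest was cluster 2 (5.46 CPM), with cluster 10 at 8.72 CPM (7 UMIs). Cluster 6 held 49.8 CPM in Tom- and 49.4 CPM in Tom+ cells. Mcl1 (231 CPM), Bcl2l1 (156 CPM) and Bax (143 CPM) were also highest in cluster 6. Bcl2l2 spanned only 1.26-fold over the clusters. Among the zone 1-like (portal) clusters Bcl2l1 was at 109.7 CPM in cluster 1 and 67.4 CPM in cluster 3, whose median depths were 24459.5 and 52546.5 UMIs, so among portal cells it was lower in the deeper cluster. Cluster 11, led by interferon-induced genes such as Rsad2, Ifit3 and Cxcl10, had the highest Bbc3 (39.8 CPM) and Bak1 (15.3 CPM) over both libraries pooled. In Tom- cells alone Bbc3 was higher in cluster 6 (35.1 CPM) and Bak1 in cluster 7 (18.9 CPM, 11.2 to 29.9, in 38 cells). Split by library, its Bbc3 was 31.9 CPM (26.0 to 38.7) in 115 Tom- cells and 47.5 CPM (40.4 to 55.6) in 73 Tom+ cells, and these intervals did not overlap. Cluster 11 also held 9 endothelial, 7 macrophage and 5 stellate markers at 5 CPM and 1.5-fold or more over other hepatocytes, and their part in these levels was not tested. Cluster 8 (618 cells, unnamed) was led by Col1a2, Col3a1 and other genes of fibroblasts and stellate cells and held 10 macrophage, 7 endothelial and 6 stellate markers by the same limits, so its place among hepatocytes is in doubt. Without clusters 8 and 11 the central over portal ratio of Bcl2l11 was 2.69 in Tom- and 3.06 in Tom+ cells on the log2 scale, its pooled Tom+ over Tom- ratio 0.64, and the central minus portal balance -0.32 and -0.29.

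Clusters 7 and 10 were 97.5% and 93.3% Tom+ cells, and both were led by Dbp, a clock output gene, among others. In the central bin, Tom+ cells of cluster 7 (zone 3-like) were compared with Tom+ cells of the remaining clusters. Bcl2l1 was at 168 against 144 CPM (log2 0.22, 0.18 to 0.27), Bak1 at 14.8 against 12.3 CPM (log2 0.26, 0.10 to 0.42), and Bax at 110.4 against 131 CPM (log2 -0.25, -0.30 to -0.19). Bcl2l11 was at 41.8 against 41.7 CPM (log2 0.00, -0.09 to 0.10). Mcl1 was higher in the cluster, by 0.11 (0.07 to 0.15). Bak1 was higher in cluster 7 in bins 3 and 4 as well, by 0.46 (0.16 to 0.74) and 0.40 (0.21 to 0.58), and Bcl2l1 in bin 4, by 0.14 (0.08 to 0.20). In bin 4, Bcl2l11 was higher in cluster 7 by 0.46 (0.33 to 0.58), Mcl1 by 0.30 (0.25 to 0.35) and Bax by 0.10 (0.04 to 0.17), and in bin 3 Bcl2l11 was higher by 0.61 (0.38 to 0.84) and Mcl1 by 0.40 (0.32 to 0.49), with Bax at -0.15 (-0.26 to -0.04). In the portal bin, Tom+ cells of cluster 10 (zone 1-like) had Mcl1 at 123 against 98.5 CPM (log2 0.33, 0.23 to 0.42) and Bid at 18.6 against 13.9 CPM (log2 0.42, 0.17 to 0.66). Their Bax was at 68.0 against 85.9 CPM (log2 -0.34, -0.46 to -0.22) and their Bcl2l11 at 3.62 against 5.40 CPM (log2 -0.58, -1.13 to -0.06). In bin 2 neither Bid (log2 0.15, -0.13 to 0.42) nor Bcl2l11 (log2 -0.12, -0.56 to 0.30) could be told apart between these cells, while Mcl1 was higher by 0.26 (0.16 to 0.36). Bax was thus lower in cluster 7 in bins 3 and 5 but higher in bin 4, and lower in cluster 10 in bin 1 and in bin 2 (log2 -0.32, -0.45 to -0.19). Without these clusters the Bax ratio of Tom+ over Tom- averaged -0.04 over the bins, against -0.07 with them.

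The genes whose levels were most like each member over 21 points of cluster and library were found among 5749 genes by Pearson's r. These points share libraries, depth and position, so r is a description. For Mcl1 they were Ctr9 (0.98), Ptpn9 (0.98) and Rnf43 (0.98), and for Bcl2l1 Dcun1d5 (0.98) and Fzd7 (0.97). For Bbc3 they were Aldh3a2, Cdo1 and Arhgef3 (0.96 to 0.97), for Bcl2l2 Bace1, Kdm6a and Ube3b (0.94 to 0.96), and for Bax Inhbc, Trim8 and Pgp (0.93 to 0.95). Bcl2l11 was under 20 CPM in Tom- hepatocytes and was left out by the rule on level.

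**Figure D4:**
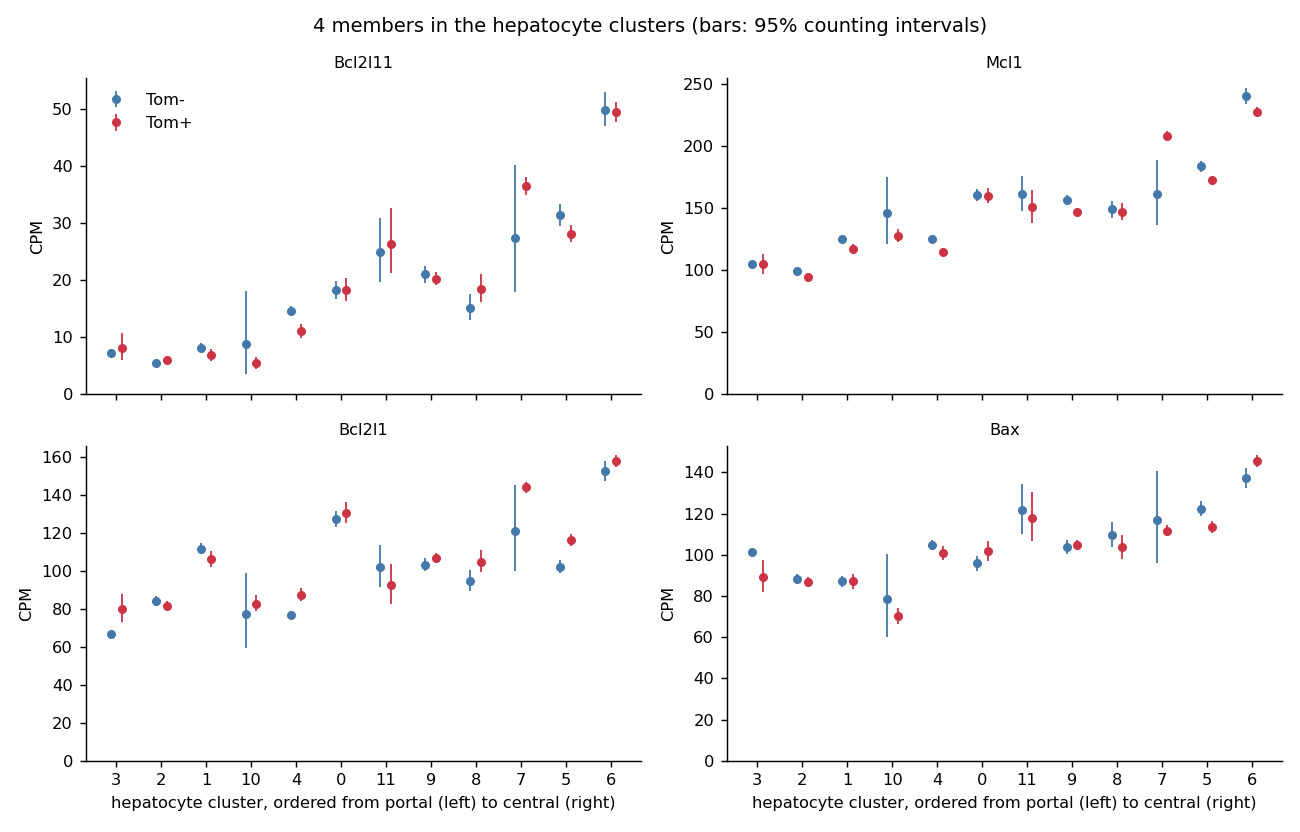
Level (CPM, linear axes from 0) of Bcl2l11, Mcl1, Bcl2l1 and Bax in the hepatocyte clusters, ordered by median position from portal to central, in Tom- (blue) and Tom+ (red) cells, with 95% counting intervals; clusters 7 and 10 hold 38 and 34 Tom- cells. Cluster 6 is highest for all 4 genes, and Bcl2l1 differs among the portal clusters 1, 2 and 3.

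The sorted libraries also held clusters with markers of other liver cells, in which Bcl2 and Pmaip1 were the members that stood out. These clusters were mixed: the hepatocyte gene Alb was at 93.4% to 113% of its level in hepatocytes in every one of them, so values below are those of mixed profiles, and the contribution of each cell type cannot be told apart. They also held markers of one another. In the stellate-like cluster the summed macrophage markers were at 1446 CPM in Tom- and 1075 CPM in Tom+ cells and the endothelial ones at 465 and 401 CPM, beside its own at 1134 and 969 CPM. In the other leukocyte-like cluster macrophage markers were at 1401 and 895 CPM, beside its own at 245 and 248 CPM. Endothelial markers in the macrophage-like cluster were at 385 and 317 CPM, against 77.8 and 60.7 CPM in hepatocytes. The part of these markers' cells in the levels and balances below was not tested. Bcl2 was at 1.11 and 1.00 CPM in Tom- and Tom+ hepatocytes. It reached 18.3 and 15.2 CPM in the stellate-like cluster (log2 4.04, 3.86 to 4.22, and 3.92, 3.72 to 4.12, over hepatocytes of the same library). In the other leukocyte-like cluster, led by B cell genes, it was at 26.8 and 19.0 CPM, and in the cholangiocyte-like cluster of 55 and 20 cells at 12.0 and 26.5 CPM. The level in the other leukocyte-like cluster depended strongly on the settings. Over the alternatives its log2 ratio over hepatocytes ranged from 4.56 to 7.27 (Tom-) and from 4.22 to 7.56 (Tom+). The endothelial-like cluster had 5.08 and 4.18 CPM and the macrophage-like cluster 5.41 and 4.33 CPM. A cluster of few genes per cell led by endothelial genes (420 Tom- and 155 Tom+ cells), left unnamed, had 20.2 and 20.8 CPM. After thinning to 5000 UMIs, a Bcl2 UMI was found in 11.5% and 8.73% of stellate-like cells, against 0.59% and 0.43% of hepatocytes, at median depths of 32565 and 42846.5 UMIs against 32310 and 35325.

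Pmaip1, whose product NOXA neutralises MCL1, was highest in the macrophage-like cluster, at 13.0 CPM in Tom- and 10.6 CPM in Tom+ cells, against 0.69 and 0.49 CPM in hepatocytes (log2 4.24, 4.04 to 4.45, and 4.45, 4.20 to 4.70). It was above hepatocytes in the other named clusters too. The stellate-like cluster had 6.28 and 4.34 CPM (log2 3.19 and 3.16) and the other leukocyte-like cluster 7.89 and 3.57 CPM (log2 3.52 and 2.88). The cholangiocyte-like cluster had 2.40 and 7.72 CPM and the endothelial-like cluster 1.03 and 0.90 CPM. The macrophage-like cluster had more Mcl1 than hepatocytes, 208 and 203 CPM against 136 and 159.6 CPM (log2 0.62 and 0.35). It also had more Bak1, 15.5 and 16.1 CPM against 9.88 and 11.5 CPM (log2 0.65 and 0.48). The stellate-like cluster had more of both too, with Mcl1 at 194.5 and 194.1 CPM and Bak1 at 14.96 and 14.7 CPM. In the endothelial-like cluster the log2 ratios of Mcl1 over hepatocytes were 0.03 and -0.12, and in the cholangiocyte-like cluster 0.24 and -0.05. In hepatocytes Bcl2 and Pmaip1 moved with the RNA of other cells. In the hepatocytes with the larger share of endothelial, macrophage, other leukocyte and stellate markers Bcl2 was at 1.34 CPM in Tom- and 1.38 CPM in Tom+ cells, against 0.84 and 0.71 CPM in the remainder. For Pmaip1 these values were 0.94 and 0.83 CPM against 0.39 and 0.22 CPM. Over both libraries pooled, both were also highest, among the clusters counted as hepatocytes, in cluster 8 (Bcl2 3.28 CPM, Pmaip1 1.99 CPM), which was led by the fibroblast genes Col1a2, Col3a1 and Dcn. In Tom- cells alone Bcl2 was at 2.73 CPM there (1.87 to 3.86), against 2.79 CPM in cluster 11 and 3.16 CPM (3 UMIs) in cluster 7. What of the hepatocyte level of either gene comes from other cells was not tested.

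Past 2-fold in both libraries, and with 10 CPM or more, were 1 of 9 members in the stellate-like cluster (Bcl2, against 6.89% of all genes), 1 of 9 in the macrophage-like cluster (Pmaip1, against 5.93%), 1 of 9 in the other leukocyte-like cluster (Bcl2, against 3.72%) and 1 of 8 in the cholangiocyte-like cluster (Bcl2, against 3.41%). In the endothelial-like cluster it was 0 of 7, against 2.59%. The unnamed cluster of few genes led by endothelial genes was not part of this count or of the balance below. Its endothelial markers had a median of 45.8-fold over hepatocytes, against 10.1-fold in the endothelial-like cluster. No member was past 2-fold lower in both libraries in any of these clusters. Bcl2 and Pmaip1 passed the filter of 10 CPM only through the clusters where they were high, so the filter fixed that they were past the fold, and these counts are no support. Set against hepatocytes of the same position makeup, Bcl2l11 in the stellate-like cluster differed by 0.12 and -0.10, against 0.49 and 0.09 without that weighting. The balance was higher towards survival than in hepatocytes by 0.55 (0.47 to 0.63) and 0.54 (0.45 to 0.63) in the stellate-like cluster and by 0.44 (0.35 to 0.53) and 0.40 (0.29 to 0.51) in the endothelial-like cluster. It was lower by -0.17 (-0.24 to -0.10) and -0.24 (-0.33 to -0.15) in the macrophage-like cluster. In the other leukocyte-like cluster it was higher by 0.52 (0.39 to 0.64) and 0.53 (0.35 to 0.70), and in the cholangiocyte-like cluster by 0.98 (0.64 to 1.31) and 0.64 (0.29 to 0.99). Most of these differences rested on Bcl2 and Pmaip1. Without both genes the differences were 0.12 (0.06 to 0.18) in either library in the stellate-like cluster, -0.01 (-0.06 to 0.03) and 0.03 (-0.03 to 0.08) in the endothelial-like cluster and -0.02 (-0.06 to 0.03) and -0.03 (-0.08 to 0.03) in the macrophage-like cluster. They were -0.04 (-0.16 to 0.07) and -0.06 (-0.20 to 0.07) in the other leukocyte-like cluster and 0.53 (0.28 to 0.79) and 0.17 (-0.15 to 0.49) in the cholangiocyte-like cluster.

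**Figure D5:**
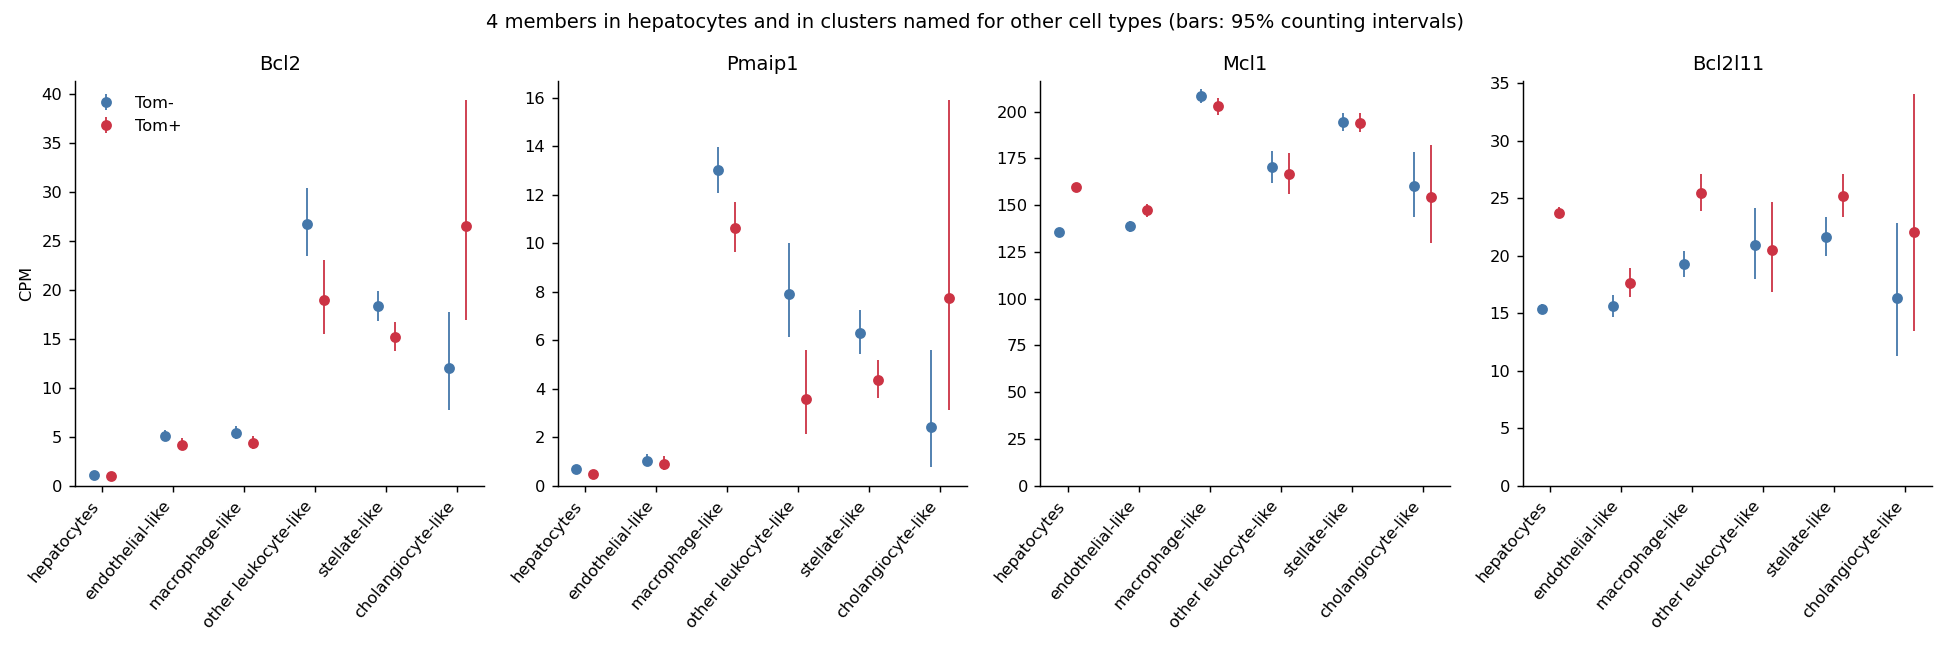
Level (CPM, linear axes from 0) of Bcl2, Pmaip1, Mcl1 and Bcl2l11 in hepatocytes and in the 5 clusters named for other cell types, in Tom- (blue) and Tom+ (red) cells, with 95% counting intervals. Bcl2 is lowest in hepatocytes (1.11 and 1.00 CPM), Pmaip1 is highest in the macrophage-like cluster in both libraries (13.0 and 10.6 CPM), and the cholangiocyte-like cluster has wide intervals.

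Of 42 listed relatives, caspases, caspase inhibitors, death receptors, channels of the outer membrane and regulators of MCL1 turnover, 40 were in the files and 28 passed the filter. Central over portal, 1 of 28 was past 1.5-fold in Tom- cells and 2 of 28 in Tom+ cells, all higher, against the 10.1% and 11.4% of all genes given above, with list medians of 0.14 and 0.24 against 0.16 and 0.21 for all genes. Casp8, the initiator caspase that cleaves BID, was at 14.9 and 25.9 CPM in Tom- cells (log2 0.79, 0.67 to 0.91) and at 16.6 and 27.1 CPM in Tom+ cells (log2 0.70, 0.59 to 0.82). Casp6, an executioner caspase, was at 23.0 and 33.2 CPM (log2 0.53) and at 20.3 and 31.5 CPM (log2 0.63, 0.53 to 0.73). Tom+ over Tom-, 0 of 28 were past 1.5-fold over all hepatocytes (1.94% of all genes), with a list median of 0.04 against 0.03. Apaf1, the scaffold of the apoptosome, was past 2-fold higher than in hepatocytes in the endothelial-like, macrophage-like, other leukocyte-like and stellate-like clusters, for example at 20.5 and 17.7 CPM in the macrophage-like cluster against 4.53 and 4.90 CPM. Bok, a further effector-like relative, was past 2-fold higher in the stellate-like cluster, at 19.1 and 18.2 CPM against 2.78 and 3.30 CPM. Without the filter of 10 CPM, Bok was past 2-fold higher in 3 more clusters. These were the endothelial-like (log2 1.34 and 1.42), macrophage-like (1.06 and 1.12) and cholangiocyte-like clusters (1.42 and 3.03). Apaf1 was likewise higher in the cholangiocyte-like cluster (1.12 and 2.73). Apaf1 and Bok were under 10 CPM in hepatocytes and passed the filter only through the clusters for which they are named here. Bcl2a1b, a relative outside the balance and under the filter, was at 5.75 and 5.32 CPM in the macrophage-like cluster, against 0.13 and 0.19 CPM in hepatocytes. It was at 2.02 and 1.67 CPM in the stellate-like cluster and at 1.60 and 1.69 CPM in the other leukocyte-like cluster.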

How the data were processed

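Single-cell RNA profiles of fixed, sorted mouse liver cells were made with the Chromium probe-based assay. The values deposited by the authors are raw counts, UMIs per gene and cell, made with Cell Ranger 7.2.0 and mm10 and not normalised. Probe counts depend on the probes of each gene. Of the features, 3 are custom and were left out of counts over all genes.

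Cells with 2000 to 10000 genes, at most 100000 UMIs and a mitochondrial fraction of at most 0.05 were kept, as in the study: 20159 of 23220 Tom- and 13378 of 16339 Tom+ barcodes. Values were scaled to 10000 UMIs a cell for clustering only (2000 variable genes, 30 components, 20 neighbours, Leiden resolution 0.8), with the members and pathway genes left out. Clusters were set aside from hepatocytes where Ptprc, Dcn or Pecam1 reached 2.5 times its median over clusters, where cholangiocyte markers led, or where the median gene number was under 0.75 of that of all cells. Both limits were set after the data were seen. A cluster name needed 3 or more markers at 5 CPM and 1.5-fold, and clusters below that stayed unnamed. This alone was not enough for a name. Clusters of few genes per cell and the cluster led by cell cycle genes stayed unnamed whatever their markers. A hepatocyte cluster was named only for a zone whose list led all others and had a gene among its top 10. Rebuilt names may differ from the study's. Scrublet marked 1 of 20159 and 0 of 13378 cells and so did not work, and doublets were treated only by leaving out the 10% of cells with the highest scores as an alternative.

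UMIs were summed per class, position was scored from 10 portal and 11 central genes, and intervals were exact Poisson (levels), conditional binomial (ratios) and Clopper-Pearson (shares) at 95%. The balance, and differences between 2 log2 ratios, had normal intervals from Poisson errors. Genes compared had 10 CPM or more in either sum and 20 UMIs or more in all. A gene was called past 1.5-fold, or past 2-fold in both libraries for cell types. Named genes were the 10 members, pathway genes past a fold, and the 3 most alike genes of each member at 20 CPM or more, of which 1 is not reported here. The members and lists were chosen with earlier results of these data known. Summing, ratios and intervals were tested on simulated data. Python 3.11.15, scanpy 1.11.5, leidenalg 0.10.2, scipy 1.17.1 and numpy 2.4.6 were used. Sequences came from RefSeq (GRCm38.p6) and gene positions from the GENCODE annotation of mm10, and 9 members were matched in each. Alternatives changed the cell filter, clusters, scaling, depth, position, folds and summary of the balance. Those on 20000 to 50000 UMIs, 20 bins, position-matched hepatocytes, hepatocytes without clusters 8 and 11, 1 CPM for cell types, and the balance without Bcl2l11 or without Bcl2 and Pmaip1 were chosen after seeing the data.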

Additional observations from a re-analysis of the deposited data

How the results depend on the processing

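No paired analysis was possible because the Tom- and Tom+ arms held a single library apiece, so no value here has a replicate. The central over portal ratio of Bcl2l11 stayed between 2.39 and 2.77 (log2, Tom-) and between 2.63 and 3.50 (Tom+), that of Mcl1 between 0.86 and 1.06 and between 0.84 and 1.11, over 17 settings each. The pooled Tom+ over Tom- ratio of Bcl2l11 stayed between 0.54 and 0.73, and its mean over position bins between -0.13 and -0.08. Shares of cells with a UMI moved in 76 of 80 alternatives, since they follow depth. Over all single values 778 alternatives kept the value within its interval, 243 moved it beyond, and 5 turned the sign of a value whose interval excluded 0. Some values whose interval held 0 also turned.

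Members past 1.5-fold centrally were 2 in each library under median of ratios (4 in Tom+ and 3 in Tom- as reported, with Bcl2l1 lost in both and Bax in Tom+) and 5 in Tom- cells among hepatocytes with few markers of other cell types (3 as reported). The shares of all genes given above hold for the reported settings only. None is given for the alternatives, so the counts in this paragraph only describe the genes listed and nothing is read from them. Tom+ over Tom-, 0 members were past the fold without the clusters dominated by Tom+ cells, where Bcl2l11 went from 0.62 to 0.54, just under 1.5-fold, and 0 at 2-fold. The difference in balance between the libraries (0.00) was -0.12 thinned to 5000 UMIs, -0.10 in cells of 20000 to 50000 UMIs, 0.13 for Bcl2l1 and Mcl1 against Bax and Bak1, and 0.11 without Bcl2l11. The central minus portal balance turned in Tom- cells to 0.017 and in Tom+ cells went to -0.028 by summed UMIs. It turned to 0.34 and 0.42 for Bcl2l1 and Mcl1 against Bax and Bak1. Without Bcl2l11 its estimates were 0.041 and 0.14, with intervals that held 0. Without Bcl2 and Pmaip1 the balance over that of hepatocytes went in Tom- and Tom+ cells to 0.12 and 0.12 (stellate-like), 0.027 in Tom+ cells (endothelial-like), -0.019 and -0.026 (macrophage-like) and 0.53 and 0.17 (cholangiocyte-like), and it turned to -0.012 in Tom- cells (endothelial-like) and to -0.044 and -0.065 (other leukocyte-like). Pathway genes past the fold were 0 and 0 (Tom-, Tom+) at 2-fold and 5 and 8 at a 1 CPM filter, centrally, and 1 at 1 CPM for Tom+ over Tom- in the portal bin. Neither the number compared at 1 CPM nor the share of all genes at these limits is given. Members past 2-fold in the macrophage-like cluster were 0 with 1000 to 10000 genes and 0 at resolution 1.2. Pmaip1 there stayed 3.79 to 4.24 (Tom-) and 4.12 to 4.47 (Tom+) above hepatocytes on the log2 scale, so the call was lost to the 10 CPM filter. The count was 2 in the other leukocyte-like cluster with 1000 to 10000 genes. At 1 CPM these counts were 2 for the macrophage-like, other leukocyte-like, stellate-like and cholangiocyte-like clusters and 1 for the endothelial-like cluster. The shares of all genes given for these clusters are for 10 CPM and do not apply to the counts at 1 CPM. Bcl2l2 turned to -0.034 and -0.096, central over portal, under median of ratios, and to -0.012 (thinned) and -0.000553 (20000 to 50000 UMIs) in its mean Tom+ over Tom- ratio. Bcl2l11 turned to -0.11 in the macrophage-like cluster of the Tom+ library with 1000 to 10000 genes. Apart from the call lost to the 10 CPM filter, the cause of these changes was not tested. Bcl2 and Pmaip1 lay near 1 UMI per 1000000 in hepatocytes, where depth limits every comparison.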

Other observations

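Some of the cells left out of the comparisons are described here. In the largest class left out, a cluster of few genes per cell (4257 Tom- and 408 Tom+ cells), Bcl2l11 was at 16.3 CPM (15.3 to 17.3) and 14.99 CPM (13.1 to 17.1), and Bcl2 at 3.40 and 2.35 CPM, at median depths of 13548 and 31965.5 UMIs. In barcodes above 100000 UMIs, 360 in Tom- and 1239 in Tom+, Bcl2l11 was at 14.9 and 19.2 CPM and Bcl2l1 at 66.3 and 89.0 CPM. In the cluster led by cell cycle genes (91 Tom- and 84 Tom+ cells) Bax was at 158 and 122 CPM and Bcl2 at 14.5 and 3.81 CPM. This cluster also held all 10 endothelial markers at 5 CPM and 1.5-fold or more over the other clusters, with a median of 9.79-fold over hepatocytes, and their part in these levels was not tested.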
